A study of Mus musculus with 10 samples.

Results

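Brain endothelial and barrier genes were followed in the hippocampus of female P301S mice with and without dihydrotestosterone (DHT), an androgen that aromatase cannot turn into estrogen. The set holds 10 genes, Cldn5, Cdh5, Pecam1, Flt1, Kdr, Tek, Slc2a1, Mfsd2a, Abcb1a and Ly6c1, chosen by symbol as genes known to mark the cells that line brain capillaries and the barrier they form. All 10 were found among the 56884 gene identifiers of the count table, and all 10 were among the 17622 genes with enough counts to be tested.

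The P301S line, also called PS19, is on a mixed B6;C3 background and carries human 1N4R Tau with the P301S mutation under the mouse Prnp promoter, so every mouse in both groups carried the transgene. At 6 months of age, 5 females received a subcutaneous SILASTIC tube holding 10 mm of DHT powder and 5 received a void (empty) tube. After 12 weeks, at 9 to 9.5 months of age, the mice were perfused with PBS, and the hippocampus of each gave 1 mRNA library, which was sequenced in bulk. No mouse without the transgene and no male was analysed here, so the comparison is between implants within Tau transgenic females only.

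Brain capillary endothelial cells are sealed to each other by tight and adherens junctions, carry nutrients inward through dedicated transporters, pump drugs and lipids outward, and suppress vesicle traffic across the cell. Their identity depends on signals through the VEGF receptors, the angiopoietin receptor and the Wnt pathway. Sex hormones are known to act on vessels, and Tau transgenic mice are studied for changes in brain vessels, but endothelial cells are a small share of the cells in a piece of hippocampus. In bulk tissue, fewer cells of a type and less RNA per cell cannot be told apart.

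Total counts ranged from 27188854 to 47113661 in void-treated females and from 33523527 to 45947784 in DHT-treated females. Levels are given as CPM, each gene's counts scaled to a common library size after edgeR's TMM correction. The neuronal genes Prox1 (118 to 211 CPM), C1ql2 (31.5 to 62.0), Neurod6 (189 to 267) and Wfs1 (104 to 181), which mark the granule and pyramidal cells of the hippocampus, were present in all 10 libraries. These 4 genes were chosen after the data were seen. The S numbers in the sample labels are all lower for void-treated than for DHT-treated females. The labels do not say what these numbers stand for, and whatever they mark cannot be told apart from the implant. Choroid plexus markers summed to between 118 and 1930 CPM in void-treated females and between 2237 and 3189 CPM in DHT-treated females. The groups did not overlap, so choroid plexus tissue and implant cannot be told apart in any difference below. The covariate described further on adjusts for this signal but cannot separate it from the implant. Values by mouse always stand in the order void-treated females 4, 5, 9, 10 and 11, then DHT-treated females 1, 2, 3, 5 and 6, the numbers being those of the sample labels.

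No difference between void and DHT was detected for any of the 10 genes. With edgeR's quasi-likelihood test and Benjamini-Hochberg adjustment over all genes tested, 0 of the 10 had an adjusted p under 0.05, beside 5.48% of all genes tested (5.22%, or 920 genes, higher and 0.261%, or 46 genes, lower). With the added limit of a log2 fold change beyond 1, 2.19% of all genes were called. At an unadjusted p under 0.05 the count was again 0, beside 17.4% of all genes. DESeq2 also gave 0 at either threshold. Among its 20917 genes with an adjusted p, it called 1221 higher and 224 lower, and 16.5% had an unadjusted p under 0.05. The groups overlapped for all 10 genes, whereas 6.27% of all genes tested had groups that did not overlap (5.39% higher and 0.88% lower with DHT). Across the 10 genes, the 95% intervals of the fitted difference between implants ran from a log2 fold change of -0.46 to 0.46, or from 0.726-fold to 1.38-fold. The design could reach an exact permutation p as low as 0.00794. The plot of levels by mouse shows all 100 values behind these statements.

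**Figure D1:**
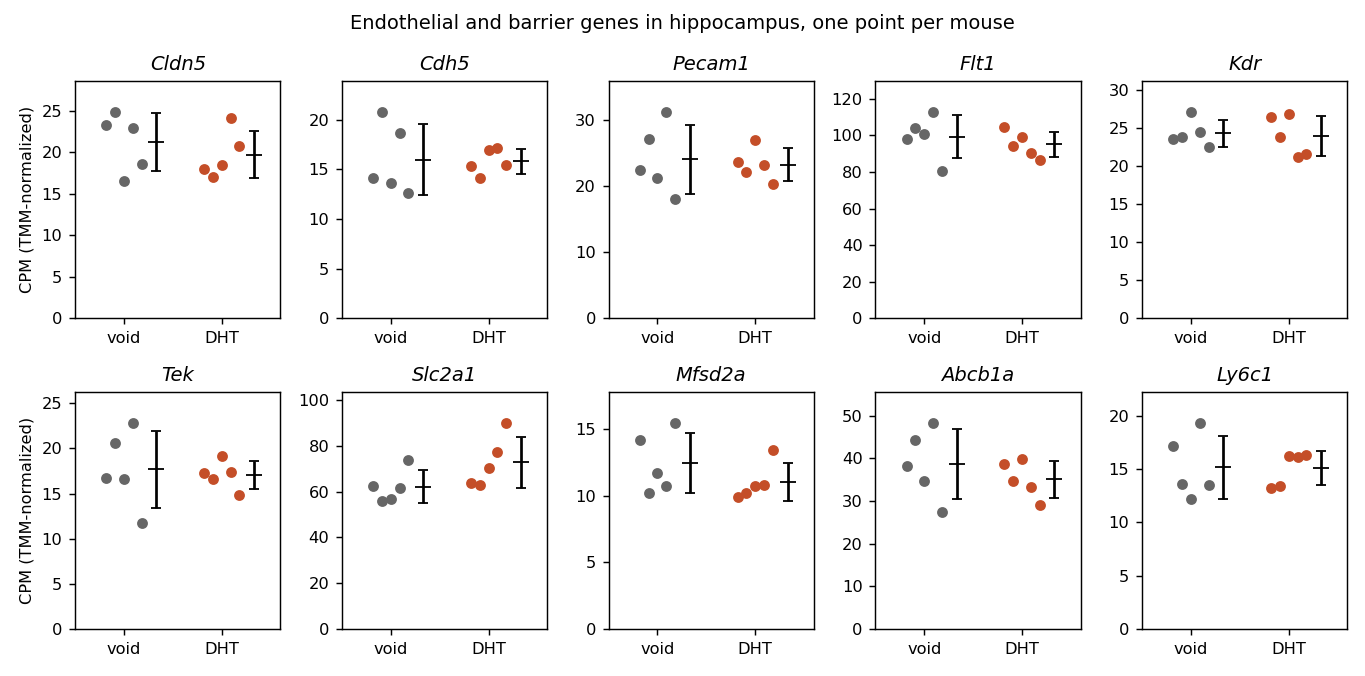
Level of each gene in CPM (vertical axes, linear, from 0) in 5 void-treated females (grey) and 5 DHT-treated females (orange), 1 point per mouse, with the mean and SD of each group as a bar beside the points. For every gene the points of the groups overlap, and Slc2a1 is the gene with the largest separation of means (62.2 and 72.9 CPM).

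Claudin-5, made from Cldn5 (ENSMUSG00000041378), is the main claudin of the tight junctions between brain endothelial cells. Its levels were 16.5, 22.9, 18.6, 23.2 and 24.9 CPM in void-treated females and 18.03, 17.0, 18.5, 24.2 and 20.8 CPM in DHT-treated females. The lowest and the highest mouse were both void-treated (4 and 11), so that all DHT-treated females lay within the void range. The group means were 21.2 ± 3.50 CPM (SD, n = 5) and 19.7 ± 2.84 (SD, n = 5), which put the log2 fold change at -0.11 (standard error 0.13, 95% interval -0.38 to 0.17, adjusted p = 0.750 from edgeR).

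VE-cadherin, made from Cdh5 (ENSMUSG00000031871), holds the adherens junctions of endothelial cells together. It was measured at 13.7, 18.7, 12.6, 14.1 and 20.8 CPM with void and at 15.3, 14.1, 17.0, 17.1 and 15.4 CPM with DHT. Void-treated females 5 and 11 stood above, and void-treated females 4, 9 and 10 below, every DHT-treated female, female 10 by a margin too small to show at this rounding. The means of 16.0 ± 3.56 CPM (SD, n = 5) and 15.8 ± 1.26 (SD, n = 5) set the log2 fold change at -0.02 (standard error 0.13, interval -0.31 to 0.28, adjusted p = 0.978 from edgeR).

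Pecam1 (ENSMUSG00000020717) encodes CD31, an adhesion protein at the contacts between endothelial cells that is also found on platelets and leukocytes. Its levels ran 21.3, 31.3, 18.1, 22.4 and 27.1 CPM with void and 23.7, 22.1, 26.96, 23.3 and 20.3 CPM with DHT. Void-treated female 5 was the highest of all 10 mice and void-treated female 9 the lowest. The log2 fold change between the means of 24.1 ± 5.17 CPM (SD, n = 5) and 23.3 ± 2.45 (SD, n = 5) was -0.05 (standard error 0.13, interval -0.34 to 0.25, adjusted p = 0.919 from edgeR).

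Among the receptor tyrosine kinases, Flt1 (ENSMUSG00000029648, VEGF receptor 1, which binds VEGF-A tightly and signals weakly) had the highest CPM of the 10 genes. Its levels were 101, 113, 80.7, 98.0 and 104 CPM with void and 105, 94.3, 99.1, 90.6 and 86.7 CPM with DHT. As with Pecam1, void-treated females 5 and 9 were the extremes. The log2 fold change was -0.06 (standard error 0.09, interval -0.25 to 0.12, adjusted p = 0.797 from edgeR), with means of 99.3 ± 11.8 CPM (SD, n = 5) and 95.1 ± 7.05 (SD, n = 5).

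Kdr (ENSMUSG00000062960) encodes VEGF receptor 2, the main signalling receptor for VEGF-A in endothelium. It was the least variable of the 10 genes among void-treated females, at 27.1, 24.5, 22.5, 23.6 and 23.8 CPM, with a coefficient of variation of 7.15%. In DHT-treated females it stood at 26.4, 23.9, 26.9, 21.2 and 21.6 CPM. DHT-treated females 5 and 6 fell below the void range, and the other 3 lay within it. The means were 24.3 ± 1.74 CPM (SD, n = 5) and 24.0 ± 2.64 (SD, n = 5), and the log2 fold change was -0.02 (standard error 0.08, interval -0.20 to 0.17, adjusted p = 0.952 from edgeR).

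Tek (ENSMUSG00000006386) encodes Tie2, the receptor for the angiopoietins, which keep vessels quiescent. Levels of 16.6, 22.8, 11.7, 16.8 and 20.6 CPM with void spread more widely than those of any other member (coefficient of variation 24.2%). With DHT they were 17.3, 16.7, 19.2, 17.4 and 14.9 CPM, all within the void range. The log2 fold change was -0.05 (standard error 0.15, interval -0.38 to 0.28, adjusted p = 0.921 from edgeR), with means of 17.7 ± 4.27 CPM (SD, n = 5) and 17.1 ± 1.55 (SD, n = 5).

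Slc2a1 (ENSMUSG00000028645) encodes GLUT1, the glucose transporter of the blood-brain barrier, which astrocytes and the choroid plexus also make. It was the only one of the 10 genes with a mean above void in the DHT group. Its levels were 57.0, 61.5, 74.0, 62.6 and 55.8 CPM with void and 63.8, 62.8, 70.3, 77.2 and 90.2 CPM with DHT. Every DHT-treated female was above 4 of the 5 void-treated females, and void-treated female 9 was above 3 of the 5 DHT-treated females. The means of 62.2 ± 7.22 CPM (SD, n = 5) and 72.9 ± 11.3 (SD, n = 5) set the log2 fold change at 0.23 (standard error 0.11, interval -0.01 to 0.46). This did not pass the test: the adjusted p from edgeR was 0.304 and the unadjusted p 0.0554, and the two-sided exact permutation test on mean log2 CPM gave p = 0.103.

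Mfsd2a (ENSMUSG00000028655) encodes the carrier that brings the omega-3 fatty acid DHA into the brain as a lysolipid and that holds down vesicle traffic across brain endothelium. It was at 11.8, 10.8, 15.5, 14.2 and 10.2 CPM with void and at 9.92, 10.2, 10.7, 10.8 and 13.5 CPM with DHT. Void-treated females 9 and 10 were the highest of all mice, and DHT-treated female 6 stood apart from the other 4 DHT-treated females. The log2 fold change of -0.18 was the lowest of the 10 genes (standard error 0.13, interval -0.46 to 0.10, adjusted p = 0.560 from edgeR), with means of 12.5 ± 2.27 CPM (SD, n = 5) and 11.04 ± 1.42 (SD, n = 5).

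Abcb1a (ENSMUSG00000040584) encodes the P-glycoprotein of mouse brain capillaries, an efflux pump that returns drugs to the blood. Its levels were 34.8, 48.3, 27.4, 38.3 and 44.3 CPM with void and 38.6, 34.6, 39.8, 33.3 and 28.9 CPM with DHT, with void-treated females 5 and 9 again the highest and the lowest of all. The log2 fold change was -0.14 (standard error 0.14, interval -0.44 to 0.17, adjusted p = 0.702 from edgeR), with means of 38.6 ± 8.18 CPM (SD, n = 5) and 35.1 ± 4.36 (SD, n = 5).

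Ly6c1 (ENSMUSG00000079018) encodes a lipid-anchored surface protein that brain endothelial cells of the mouse share with some blood leukocytes. It was at 12.2, 19.3, 13.5, 17.2 and 13.6 CPM with void and at 13.3, 13.4, 16.2, 16.2 and 16.3 CPM with DHT. The DHT-treated females lay within the void range, whose ends were void-treated females 4 and 5. The means were 15.1 ± 2.98 CPM (SD, n = 5) and 15.1 ± 1.59 (SD, n = 5), with a log2 fold change of -0.01 (standard error 0.13, interval -0.29 to 0.28, adjusted p = 0.992 from edgeR).

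**Figure D2:**
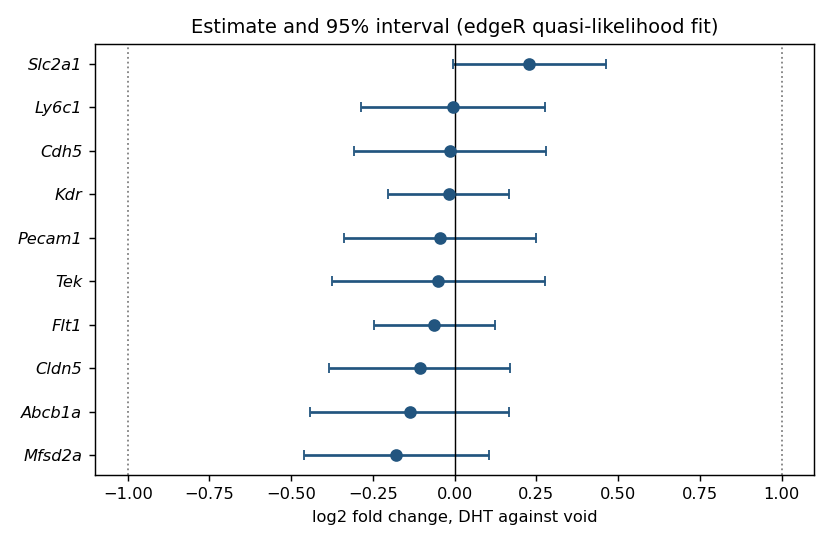
Log2 fold change of each gene, DHT against void (horizontal axis, 0 meaning no difference), with its 95% interval from the edgeR fit on 5 mice per group; dotted lines mark a log2 fold change of -1 and 1. Every interval crosses 0, that of Slc2a1 by the least (-0.01 to 0.46), and none reaches beyond -0.46 or 0.46.

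By direction alone, 9 of the 10 log2 fold changes were below 0 and 1 was above, beside 8395 of all 17622 genes tested below 0. The median of the 10 was -0.05, beside 0.01 over all genes tested. This direction and the intervals hold for the fit on implant alone. With the choroid plexus content of each library as a covariate, 7 of the 9 values turned positive, from 0.16 (Flt1) to 0.52 (Tek), and 0 of the 10 genes had an adjusted p under 0.05 in edgeR. At an unadjusted p under 0.05 there were 4 of 10, beside 6.89% of all genes in that fit: Cdh5 (log2 fold change 0.50, standard error 0.13), Tek (0.52, standard error 0.16) and Pecam1 (0.44, standard error 0.15) on the higher side and Mfsd2a (-0.48, standard error 0.18) on the lower, with adjusted p values of 0.565 to 0.629. In the plot of estimates and intervals, a log2 value of 1 in either direction, the fold limit of the study, lies outside all 10 intervals of the fit on implant alone. For 7 of the 10 genes, all 5 DHT-treated females lay within the range of the void-treated females. The exceptions were Slc2a1, Mfsd2a and Kdr.

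The spread was wider in void-treated females for 8 of the 10 genes. The coefficient of variation ran from 7.15% to 24.2% with void (median 18.9%) and from 7.42% to 15.5% with DHT (median 10.8%). Kdr and Slc2a1 were the exceptions. Counts of the 10 genes per library lay between 337 and 4774, for which counting error alone gives 5.45% and 1.45%. Whether the spread itself differs between the groups was not tested.

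Per kilobase of exon, the levels over all 10 mice fell into an order. Slc2a1 was at the top with 19.3 ± 3.01 CPM per kilobase (SD, n = 10), followed by Cldn5 with 14.5 ± 2.20 and Ly6c1 with 9.01 ± 1.34. Flt1 (7.20 ± 0.697) and Abcb1a (6.72 ± 1.18) were neighbours, with Flt1 the higher in 8 of 10 mice. Mfsd2a followed at 5.23 ± 0.864. Pecam1 (3.80 ± 0.615), Cdh5 (3.78 ± 0.599) and Tek (3.69 ± 0.647) did not differ beyond their spread: Pecam1 was above Cdh5 in 6 of 10 mice and Cdh5 above Tek in 4. Kdr was lowest at 2.68 ± 0.234. Exon lengths were those of GENCODE M21, so the order depends on that annotation, and Slc2a1 is made by more cell types than the rest.

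Ly6c1 and Abcb1a each have a close paralogue, Ly6c2 and Abcb1b, and the sources used here do not say how reads matching both were counted. For each pair, the 90 bases in which the coding sequences differ most are shown, to make plain where in the coding sequence a read best tells the paralogues apart. Transcript sequence outside the coding part was not searched for such stretches. For Ly6c1 and Ly6c2 these are bases 1 to 90, the start of the coding sequence. For the other pair they are bases 1883 to 1972 of Abcb1a and bases 1892 to 1981 of Abcb1b. The stretches are written 5′ to 3′ on the coding strand from GENCODE M21 transcripts (GRCm38), with the bases that differ in capitals.
Ly6c1: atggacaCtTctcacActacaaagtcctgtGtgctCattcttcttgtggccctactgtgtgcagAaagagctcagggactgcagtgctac
Ly6c2: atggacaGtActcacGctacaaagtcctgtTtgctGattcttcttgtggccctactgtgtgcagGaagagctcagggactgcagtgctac
Abcb1a: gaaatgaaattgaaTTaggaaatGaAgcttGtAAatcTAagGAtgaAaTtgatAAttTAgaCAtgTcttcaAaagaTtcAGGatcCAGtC
Abcb1b: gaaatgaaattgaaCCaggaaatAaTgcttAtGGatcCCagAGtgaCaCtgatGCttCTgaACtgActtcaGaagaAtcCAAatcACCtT
The Ly6c1 and Ly6c2 stretches differ at 6 of the 90 bases, and the whole coding sequences of 396 bases each are 97.7% identical, with a longest identical run of 188 bases. The Abcb1a and Abcb1b stretches differ at 29 of the 90 bases, and their coding sequences of 3831 bases each are 87.7% identical, with a longest identical run of 338 bases. Of all 100-base windows in the annotated transcripts, 9.06% of those of Ly6c1 (159 of 1756) also occur in Ly6c2, and 9.03% of those of Abcb1a (488 of 5404) also occur in Abcb1b.

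Both paralogues were counted far less than the genes they resemble. Ly6c2 had between 1 and 53 counts per library, against 434 to 773 for Ly6c1. Abcb1b was at 4.99 ± 0.511 CPM (SD, n = 5) with void and 5.59 CPM with DHT, against 38.6 and 35.1 CPM for Abcb1a, and its log2 fold change of 0.16 did not pass the test (adjusted p = 0.530 from edgeR). With each pair summed, Ly6c1 moved to a log2 fold change of 0.02 and did not pass the test either. For both pairs the assignment of shared reads remains uncertain.

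The larger differences lay between mice. The map of relative levels shows Cdh5, Pecam1, Flt1, Tek and Abcb1a moving together across mice. Cldn5 and Ly6c1 went with them less closely, and Mfsd2a and Slc2a1 were often on the opposite side. Void-treated female 5 had the highest level of her group for 5 of the 10 genes, and void-treated female 9 the lowest for 6 (Cdh5, Pecam1, Flt1, Kdr, Tek and Abcb1a) and the highest for the remaining barrier carriers Slc2a1 and Mfsd2a. DHT-treated female 6 showed the same split in her group, with the lowest Pecam1, Flt1, Tek and Abcb1a and the highest Slc2a1, Mfsd2a and Ly6c1. Averaged over the 10 genes as log2 differences from each gene's mean, the mice ran from -0.17 (void-treated female 9) to 0.21 (void-treated female 5). Pericyte and smooth muscle markers summed to their lowest in void-treated female 9 (233 CPM) and their highest in void-treated female 5 (341 CPM). The same females also stood at the ends of their group in choroid plexus markers, at 1930 CPM (female 9) and 118 CPM (female 5). The share of counts from mitochondrial genes was 1.53% in female 9 and 2.39% in female 5. The part of vessel content, choroid plexus content and RNA quality in the difference between these mice was not tested.

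Set in order of their summed choroid plexus markers, void-treated females 5, 11, 10, 4 and 9 stood at 118, 126, 463, 973 and 1930 CPM. In that same order Pecam1 went 31.3, 27.1, 22.4, 21.3 and 18.1 CPM, Tek 22.8, 20.6, 16.8, 16.6 and 11.7 CPM, and Abcb1a 48.3, 44.3, 38.3, 34.8 and 27.4 CPM, so that each fell at every step. None of the other members did so. The share of counts from mitochondrial genes also fell at every step, at 2.39, 2.13, 1.75, 1.70 and 1.53%. Choroid plexus signal and mitochondrial share thus put these 5 mice in the same order, and the part of the mitochondrial share was not tested. The order was noticed after the values were seen and carries no test. The fall at every step did not extend to the DHT-treated females, whose choroid plexus markers summed to 2237, 2286, 2306, 2540 and 3189 CPM in females 3, 2, 5, 6 and 1. Pecam1 there went 26.96, 22.1, 23.3, 20.3 and 23.7 CPM, and Tek 19.2, 16.7, 17.4, 14.9 and 17.3 CPM. Abcb1a went 39.8, 34.6, 33.3, 28.9 and 38.6 CPM, falling as far as female 6 and rising in female 1. For each of these genes all 5 values were above that of void-treated female 9. All 5 DHT-treated females had more choroid plexus signal than she did. Between the groups, that signal and the implant cannot be told apart. The covariate fit compares the implants after a straight-line adjustment of log2 levels for this signal, in a range where no mice of the groups overlap.

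**Figure D3:**
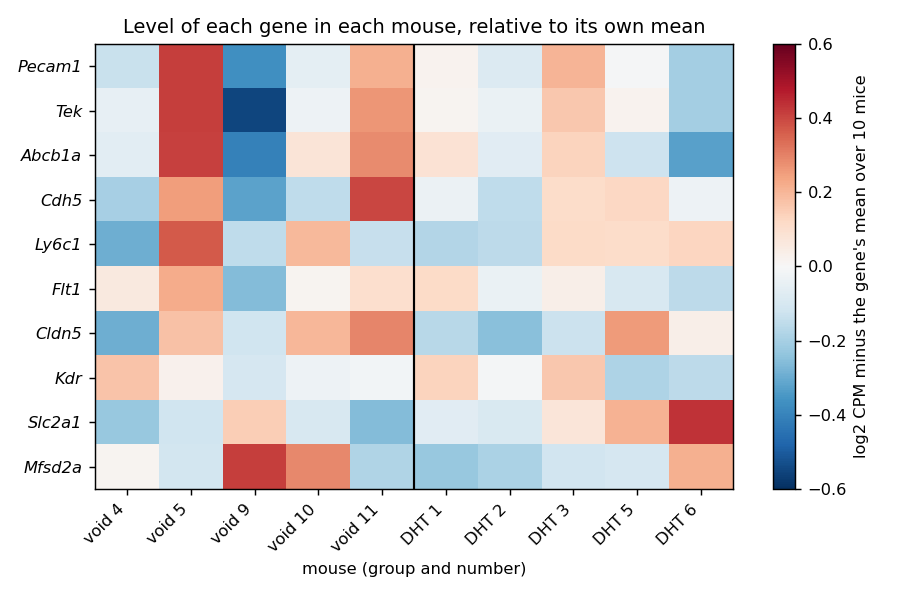
Log2 CPM of each gene in each mouse minus the gene's mean over all 10 mice (colour, from -0.6 in blue to 0.6 in red), with void-treated females to the left of the black line and DHT-treated females to the right. Void-treated female 5 is high and void-treated female 9 low for Pecam1, Tek and Abcb1a, whereas Mfsd2a is high in void-treated females 9 and 10.

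To describe this shared movement with the implant taken out, each gene's log2 CPM was centred on its group mean and correlated with the mean of the other 9 genes over the 10 mice. The coefficients below carry no test, since the genes come from the same 10 libraries. Pecam1 (Pearson r = 0.88), Tek (0.83), Abcb1a (0.77), Cdh5 (0.75), Ly6c1 (0.62), Flt1 (0.61) and Cldn5 (0.48) moved with the rest. Kdr (-0.05) stood outside, and Slc2a1 (-0.37) and Mfsd2a (-0.63) ran the other way. Over the 45 pairs the coefficients had a median of 0.35, from -0.84 for Flt1 with Mfsd2a to 0.97 for Pecam1 with Tek. The pair Slc2a1 and Mfsd2a, both carriers that bring nutrients into the brain, had a coefficient of 0.84 with each other.

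**Figure D4:**
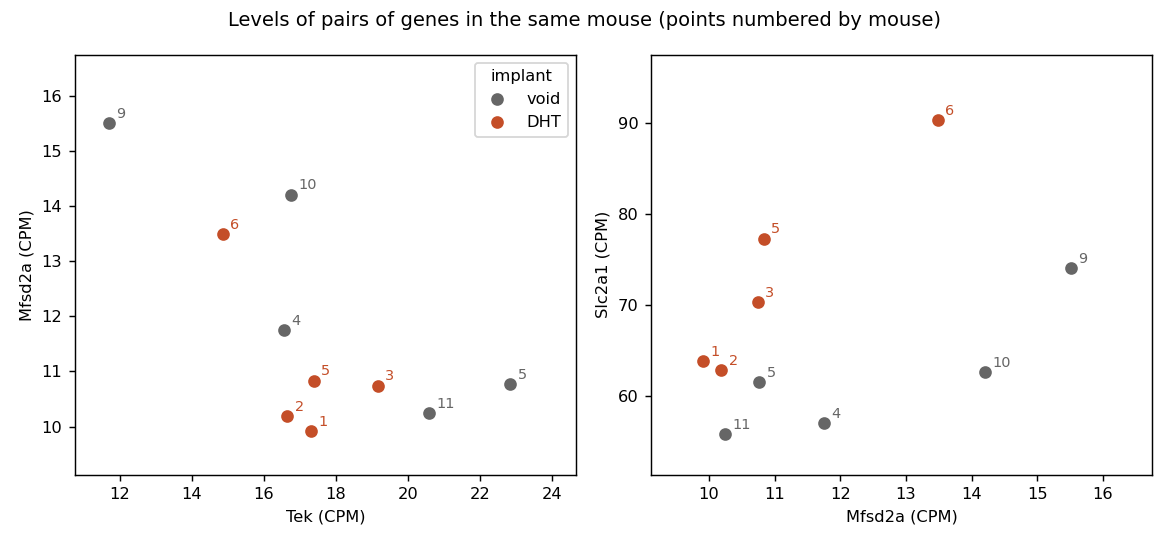
Left, Mfsd2a against Tek and right, Slc2a1 against Mfsd2a, in CPM on linear axes that do not start at 0, with 1 point per mouse, grey for void and orange for DHT, numbered as in the labels. Mfsd2a is highest where Tek is lowest (void-treated female 9, 15.5 and 11.7 CPM), and in the right panel the DHT-treated females lie above the void-treated females at a like level of Mfsd2a.

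Among the 11911 genes with a mean of at least 5 CPM, the 8 whose centred pattern over the 10 mice was most like the mean of the 10 members included Chic2 (Pearson r = 0.94) and Efcab6, H3f3b, Ly6a, Ptprm, Podxl and Srsf5 (each 0.92). Ptprm and Podxl, a phosphatase at endothelial contacts and a sialomucin of the vessel lumen, are known in endothelium, and Ly6a is a surface protein of mouse brain endothelium. Srsf5 encodes a splicing factor present in most cells. The adjusted p values of these 7 genes for DHT against void ran from 0.234 to 0.993 with edgeR.

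Beyond the 10 genes, 7 lists of vascular genes were described, which hold 104 genes, 101 of them tested. Of these, 12 passed an adjusted p under 0.05 (11.9%), and all 12 were higher with DHT, the direction in which 5.22% of all genes tested were called. The median log2 fold change over the 101 genes was 0.09, and 73 of them were above 0, beside 9227 of all 17622 genes tested. DESeq2, whose counts by list stand below, called 1221 genes higher and 224 lower among 20917. The plot of fold changes by list places the 12 genes, which include several that epithelium, microglia or astrocytes also make.

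Endothelial identity genes, the list closest to the 10 members, had 1 of 23 higher and 0 lower with edgeR, with a median log2 fold change of 0.05. DESeq2 called 2 higher, the added gene being the transcription factor Fli1 (0.39, adjusted p = 0.0410). The transcription factor Erg had means of 4.98 CPM (void) and 5.30 CPM (DHT), and Vwf, the clotting protein of endothelium, was at 23.2 and 22.1 CPM, and neither passed the test (adjusted p = 0.836 and 0.931 from edgeR). The gene called by both tools was Pltp, a phospholipid transfer protein that many cell types make, from 60.4 ± 11.8 to 91.9 ± 17.1 CPM (SD, n = 5 each), or 0.60 on the log2 scale with a standard error of 0.15 (adjusted p = 0.0333 from edgeR). Void-treated female 9 was at 80.2 CPM and within the DHT range of 72.3 to 113 CPM.

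Of 14 other junction genes, 1 was higher and 0 lower with edgeR (median 0.15). An unadjusted p under 0.05 was reached by 6, beside 17.4% of all genes tested. DESeq2 called 2 higher and 1 lower, the lower one being Afdn, a junction scaffold (-0.16, adjusted p = 0.0446). Called by both tools was F11r, the junctional adhesion molecule JAM-A, which epithelia make as well as endothelium. It was at 7.91, 8.12, 13.1, 8.49 and 8.48 CPM with void and at 20.98, 13.9, 17.95, 17.8 and 14.98 CPM with DHT, groups that did not overlap (log2 fold change 0.90, standard error 0.16, adjusted p = 0.00980 from edgeR). Occludin (Ocln), a tight junction protein of epithelium and brain endothelium, had a log2 fold change of 0.40 and did not pass with edgeR (adjusted p = 0.0623) but passed with DESeq2 (0.37, adjusted p = 0.0307). The scaffold gene Tjp1 was at 165 and 167 CPM.

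VEGF and angiopoietin signalling genes, the ligands and partners of Flt1, Kdr and Tek, had 0 of 17 called with edgeR. DESeq2 called 1 lower (Apln, adjusted p = 0.0462). With edgeR, 2 had an unadjusted p under 0.05, beside 17.4% of all genes tested. Both of the 2 were ligands: Apln, made by the tip cells of growing vessels among others, had a log2 fold change of -0.31 (adjusted p = 0.119), and Angpt1, the activating ligand of Tie2, one of 0.41 (adjusted p = 0.237). Vegfa, the ligand of Flt1 and Kdr, was at 47.9 and 46.2 CPM. Aplnr had too few counts to be tested.

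Barrier transporters had 3 of 18 higher and 0 lower with edgeR (median 0.08), and 3 higher and 1 lower with DESeq2, the lower one being the zinc transporter Slc39a10 (-0.26, adjusted p = 0.0236). Of those called by both tools, Slco1c1, a carrier of organic anions, rose from 61.3 ± 8.69 to 89.3 ± 15.7 CPM (log2 fold change 0.54, adjusted p = 0.0262), and the efflux pump Abcc4 from 17.5 ± 1.59 to 26.2 ± 4.57 CPM (0.58, adjusted p = 0.0139; SD, n = 5 each, edgeR). Both are also made by choroid plexus epithelium. Abcg2, the efflux pump that works beside P-glycoprotein, was at 19.4 and 20.02 CPM, and Slc7a5, the large amino acid carrier, was at 53.7 and 55.7 CPM.

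Genes of the Wnt pathway that maintains the barrier had 3 of 16 higher and 0 lower (median 0.10). These were the receptor Fzd4 (22.2 ± 4.56 to 40.1 ± 7.19 CPM, log2 fold change 0.86, adjusted p = 0.00990) and the co-receptors Lrp5 (13.1 ± 1.49 to 19.8 ± 2.91 CPM, 0.60, adjusted p = 0.0122) and Lrp6 (86.9 ± 4.61 to 107 ± 12.0 CPM, 0.30, adjusted p = 0.0416; SD, n = 5 each, edgeR). The other genes of the list, the pathway's targets and endothelial partners among them, did not pass. Axin2 was at 25.3 and 26.0 CPM, Lef1 at 7.54 and 8.30, Tspan12 at 23.3 and 23.3, and Adgra2 at 12.6 and 12.5. The log2 fold changes of these other genes ran from -0.26 (Wnt7a) to 0.32 (Foxf2, unadjusted p = 0.0436, adjusted p = 0.268 from edgeR). Those of Apcdd1 (0.20), Sox17 (0.18) and Foxq1 (0.12) lay between. Over the whole list 12 of 16 were above 0 and 4 below, beside 9227 of all 17622 genes tested above 0.

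Caveolae and fenestrae, the routes that barrier endothelium keeps few of, had 1 of 6 genes higher and 0 lower (median 0.16). Cavin2, which shapes caveolae, was at 9.09, 10.3, 8.50, 9.19 and 9.11 CPM with void and at 12.5, 12.1, 13.7, 13.2 and 11.8 CPM with DHT. Every DHT-treated female was above every void-treated female, and the log2 fold change was 0.45 with a standard error of 0.08 (adjusted p = 0.00992 from edgeR). Plvap, the diaphragm protein of fenestrae, was at 6.20 and 7.66 CPM, and Cav1 at 18.7 and 20.1 CPM, and neither passed the test.

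Endothelial activation genes had 3 of 7 higher and 0 lower (median 0.31), all 3 with groups that did not overlap. Icam1, an adhesion protein that captures leukocytes, was at 1.94, 2.97, 2.64, 3.54 and 2.85 CPM with void and at 6.94, 3.63, 6.56, 5.03 and 5.75 CPM with DHT (log2 fold change 1.01, standard error 0.20, adjusted p = 0.0133 from edgeR). Vcam1, its partner in leukocyte capture, rose from 38.4 ± 3.42 to 63.3 ± 14.6 CPM (0.72, adjusted p = 0.0122), and the TNF receptor gene Tnfrsf1a from 10.3 ± 1.43 to 17.5 ± 3.06 CPM (0.76, adjusted p = 0.00992; SD, n = 5 each, edgeR). Other cells of the brain, microglia and astrocytes among them, can make all 3. The selectins Sele and Selp, which are more restricted to activated endothelium and platelets, had too few counts to be tested.

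**Figure D5:**
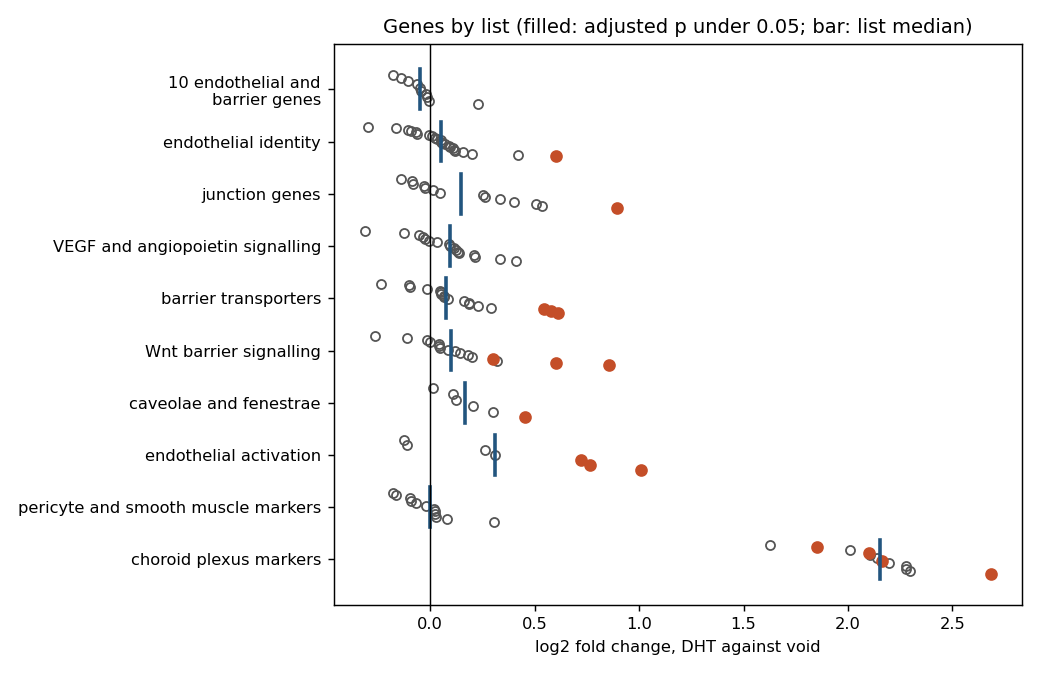
Log2 fold change, DHT against void (horizontal axis), of every tested gene in each list, 1 point per gene, filled in orange where the adjusted p from edgeR was under 0.05, with the list's median as a blue bar. The 10 endothelial and barrier genes (median -0.05) and the pericyte markers (median -0.00) lie around 0 with no filled point, and the choroid plexus markers (median 2.15) lie far to the right.

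Markers of the neighbouring cells moved to unequal degrees beside these lists. Pericyte and smooth muscle markers had 0 of 12 called by edgeR (0 at an unadjusted p under 0.05, 0 by DESeq2), with sums of 233 to 341 CPM with void and 235 to 332 CPM with DHT. The 10 members summed to 295 to 373 CPM and 309 to 345 CPM. Choroid plexus markers had 4 of 12 called by edgeR and 6 by DESeq2, all 12 above 0 with a median log2 fold change of 2.15, microglia markers had 6 of 8 called (0.65), and of the astrocyte markers Gfap was called (1 of 6). Meningeal fibroblast markers had 1 of 7 called, Igf2, and neuron (0 of 5), oligodendrocyte (0 of 4) and blood markers (0 of 1 tested) had none by edgeR. Blood markers summed to at most 2.68 CPM in any mouse.

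With the choroid plexus content of each library as a covariate, none of the 12 vascular genes passed an adjusted p under 0.05, as was so for all genes tested. All 12 log2 fold changes stayed above 0, with a median of 0.51 instead of 0.61. At an unadjusted p under 0.05 from edgeR there were 8 of the 12, beside 6.89% of all genes in that fit. Without void-treated females 5 and 11, which had the least choroid plexus signal, 0 genes of any kind passed, these 12 among them. The median log2 fold change of the 12 there was 0.58. All 12 were above 0 with an unadjusted p under 0.05 from edgeR, beside 14.9% of all genes in that fit. DESeq2 and the fit without void-treated female 9 each called all 12. The 12 were picked because they passed in these same libraries, so their values under these alternatives are no separate support. Because the groups do not overlap in choroid plexus signal, that signal and the implant cannot be told apart for these genes.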

How the data were processed

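Hippocampal mRNA of 10 mice was sequenced, with 1 library per mouse. The authors trimmed and filtered reads with HTStream, aligned them with STAR 2.7.10b and deposited the resulting gene counts, which are raw. The paper names mm10 as the genome and the submitters' processing notes name mm39 and GRCm39. Of the 56884 identifiers, 51948 had a symbol in GENCODE M21 and 51911 carried a later version than there, so M21 gave names, exon lengths and transcripts only and no coordinates are printed. Handling of strand and of reads matching several genes is not given in the sources used here.

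The sample labels gave the groups. In edgeR 4.0.16 (R 4.3.3), libraries were scaled by TMM, 17622 genes passed the filter on low counts, and quasi-likelihood p-values were adjusted by Benjamini-Hochberg over all of them. A standard error is the size of the log2 fold change divided by the root of F. An alternative was DESeq2 1.42.0, which the authors used. Per-mouse log2 CPM used a prior count of 2. On simulated data with 200 of 17400 genes changed by a log2 value of 1, edgeR recovered 78.5%, with 4.85% of calls false.

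The members, lists and tests were chosen with earlier results of these data known. Genes named are the 10 members, their paralogues Ly6c2 and Abcb1b, up to 4 called genes of each list (otherwise the 2 with the lowest p) and the 8 genes most like the members. The results for 2 genes chosen by this rule are not reported here. Others, named for their known roles, were chosen after their values were seen. Alternatives were other scalings, filters and models, summed paralogues, a choroid plexus covariate and leaving out mice.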

Additional observations from a re-analysis of the deposited data

Results flagged for a closer look

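Mfsd2a in DHT-treated female 6 stood apart from the other DHT-treated females. At 13.5 CPM, against 9.92 to 10.8 CPM in the other 4, the gap to the nearest mouse was 0.744 of the whole range of the group, above the limit of 0.71 that Dixon's test sets for 5 samples. The gene's log2 fold change without that mouse lay within the range given below. Of the 20 groups of 5 examined (10 genes in 2 groups), this was the 1 that passed, and chance gives about 1.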

How the results depend on the processing

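With edgeR and DESeq2, none of the 10 genes passed an adjusted p under 0.05 under any alternative run. Of 200 values, 172 kept their direction and 28 changed sign, and the lowest adjusted p was 0.136 (Slc2a1, with 1 mouse left out). Slc2a1 stayed above 0 in every alternative, at 0.09 with the choroid plexus covariate, against 0.23. With the choroid plexus covariate, log2 fold changes turned positive for Cldn5 (0.26), Cdh5 (0.50), Pecam1 (0.44), Flt1 (0.16), Tek (0.52), Abcb1a (0.35) and Ly6c1 (0.28). Without void-treated females 5 and 11 they did so for Cdh5 (0.20), Pecam1 (0.15), Tek (0.16), Abcb1a (0.0374) and Ly6c1 (0.05). Ly6c1 was at 0.0033 with library size alone and at 0.0185 with paralogues summed. The plain difference in mean log2 CPM with a prior count of 0.5, which is no fitted value, was 0.0084 for Cdh5 and 0.0072 for Ly6c1, beside 0.0083 and 0.0072 with the prior count of 2. Kdr was at 0.032 without void-treated females 9 and 10 and DHT-treated females 5 and 6, an alternative chosen after seeing the data. What lies behind these sign changes was not tested.

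When mice were left out singly, the log2 fold changes ranged from -0.0895 to 0.07 (Cdh5), -0.13 to 0.07 (Pecam1), -0.0900 to 0.0246 (Kdr), -0.17 to 0.06 (Tek), -0.0752 to 0.10 (Ly6c1), -0.23 to -0.06 (Cldn5), -0.13 to -0.01 (Flt1), -0.24 to -0.04 (Abcb1a), -0.27 to -0.09 (Mfsd2a) and 0.14 to 0.30 (Slc2a1).

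Counts over all genes moved further. The 920 genes higher and 46 lower became 0 and 0 with the covariate, 0 and 0 without void-treated females 5 and 11, and 505 and 19 under the alternative chosen after seeing the data; DESeq2 gave 224 lower. With each mouse left out in turn, between 351 (without void-treated female 11) and 1072 (without void-treated female 9) were higher, and between 5 (without void-treated female 11) and 77 (without DHT-treated female 2) were lower. With the fold limit as well, the 382 higher and 4 lower became 0 and 0 with the covariate and 0 and 0 without void-treated females 5 and 11. The 4 became 7 with DESeq2, 8 with no filter, 2 where every library had to reach 10 counts, and 1 under the alternative chosen after seeing the data. With each mouse left out, 175 (without DHT-treated female 1) to 513 (without void-treated female 9) were higher and 0 (without void-treated female 5 or 11) to 7 (without void-treated female 9) lower.

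No paired analysis was possible. The paper states that littermates were randomized between implants, but the sample labels give no litter. The mouse number 5, the only one found in both groups, is not known to mark a pair. Depth limits Ly6c2, with 1 to 53 counts per library, and Aplnr, Sele and Selp, which had too few counts to be tested.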

Other observations

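The ratio of Slc2a1 to Mfsd2a, the glucose and the DHA carrier, was chosen after its values were seen and carries no test. It was 4.85, 5.71, 4.77, 4.41 and 5.45 in void-treated females 4, 5, 9, 10 and 11, and 6.43, 6.16, 6.54, 7.13 and 6.69 in DHT-treated females 1, 2, 3, 5 and 6. Every DHT-treated female was above every void-treated female. On the log2 scale the means were 2.32 ± 0.150 (SD, n = 5) and 2.71 ± 0.0776 (SD, n = 5), a difference of 0.39. Among the 45 ratios that the 10 genes can form, this was the 1 whose groups did not overlap. It joins the members with the highest and the lowest log2 fold change (0.23 and -0.18). Taken singly, each of the 10 genes had groups that overlapped, and 6.27% of all genes tested had groups that did not. The share among ratios of other genes was not computed, so the 1 of 45 cannot be set beside it.

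Ly6a and Ly6c2 differed between mice within both groups. Ly6a (Sca-1) was at 3.17, 19.7, 2.36, 8.93 and 8.27 CPM in void-treated females 4, 5, 9, 10 and 11, and at 5.46, 3.08, 17.7, 3.71 and 4.23 CPM in DHT-treated females 1, 2, 3, 5 and 6. Ly6c2 had 42, 1, 49, 14 and 9 counts and 32, 43, 8, 29 and 53 counts in the same mice. The 4 mice with the highest Ly6a (void-treated females 5, 10 and 11 and DHT-treated female 3) were the 4 with the fewest Ly6c2 counts. Ly6c1 did not show that order, at 19.3, 17.2, 13.6 and 16.2 CPM in those 4 and 12.2 to 16.3 CPM in the other 6. Neither Ly6a (log2 fold change -0.30, standard error 0.60, adjusted p = 0.879) nor Ly6c2 (0.45, standard error 0.64, adjusted p = 0.806) passed edgeR's test between the implants.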
